A study of Mus musculus with 4 samples.

Results

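The 45 genes described here encode proteins of the small subunit processome and of the later steps that build the 40S ribosomal subunit. They were chosen by name, as assembly factors of this subunit, out of 24411 genes listed in each library, and all 45 were found. Utp11 and Utp4 are listed under their older symbols Utp11l and Cirh1a. RNA with poly(A) tails was sequenced from ICR mouse embryos made by in vitro fertilization and cultured in KSOM medium with bovine serum albumin to the late two-cell stage at 36 hpi (hours post-insemination). There were 2 libraries of DMSO_Control embryos, which received the solvent, and 2 libraries of MYC_inhibited embryos, which received 6 µM of 10074-G5, a small molecule that binds the transcription factor MYC and keeps it from pairing with its partner MAX. Each library pooled 10 embryos, so single embryos and arrested or delayed embryos cannot be told apart within a pool. The start of the exposure is given as 3 hpi in the sample labels and as 6 hpi in the series text. The libraries are called DMSO replicates 1 and 2 and inhibitor replicates 1 and 2 in what follows.

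Ribosomal RNA is transcribed in the nucleolus as a long precursor that holds the 18S, 5.8S and 28S sequences. The small subunit processome is a very large particle that forms on the leading end of this precursor together with the U3 small nucleolar RNA, folds the 18S region, cuts the spacers off and releases an early 40S particle, which later factors carry through export and the last cut of the 18S end. In the mouse zygote the nucleoli are inactive precursor bodies, and synthesis of ribosomal RNA resumes during the two-cell stage, as the embryo's own genome is switched on. The genes for these factors are known in many cell types as targets of MYC, which with MAX binds the E-box, the 6 letters CACGTG.

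Of the 45 members, 38 had a promoter window in the RefSeq table for GRCm38.p6, the assembly also known as mm10, and the motif CACGTG, which reads the same on both strands, was present in 12 of the 38 (31.6%). Each window runs from 250 bases before to 50 bases after an annotated transcription start. The same search over the windows of all genes in the table found the motif in 8.09% of 27025 genes, and over the genes tested for expression here in 11.5% of 10307. A match is a description of the letters and not a measured binding site. In 10 members the motif lay within 50 bases of the start on either side (26.3%), against 3.39% of all genes and 5.07% of the tested genes. These 10 are printed from 5′ to 3′ on the strand of the gene, with the motif in capitals and with the position of its first base, the start site being 1 and the base before it −1, because they hold the letters that MYC and MAX are known to bind at the place where transcription begins.
Utp18: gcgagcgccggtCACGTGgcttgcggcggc, chr11:93885769-93885798, minus strand, motif at −20.
Utp20: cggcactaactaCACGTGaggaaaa, chr10:88826765-88826789, minus strand, motif at 38.
Cirh1a: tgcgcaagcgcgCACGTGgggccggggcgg, chr8:106893643-106893672, plus strand, motif at 16.
Wdr43: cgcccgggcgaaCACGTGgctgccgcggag, chr17:71616220-71616249, plus strand, motif at 18.
Wdr46: aagggagtttcgCACGTGgatcgttgttcg, chr17:33940699-33940728, plus strand, motif at −12.
Nol11: cttgagcgttcgCACGTGgtctagactcca, chr11:107189407-107189436, minus strand, motif at −43.
Ltv1: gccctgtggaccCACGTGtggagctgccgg, chr10:13193092-13193121, minus strand, motif at 29.
Tsr1: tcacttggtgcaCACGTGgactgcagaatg, chr11:74898092-74898121, plus strand, motif at 25.
Tsr2: ctgcctgggagcCACGTGatctaaacggat, chrX:151096511-151096540, minus strand, motif at 16.
Pno1: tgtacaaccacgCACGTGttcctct, chr11:17211540-17211564, minus strand, motif at 38.
In the other two members with the motif, Rrp7a and Imp4, it began at −208 and −121. The windows of Utp6, Utp11l, Utp23, Wdr36, Nol6, Tbl3 and Dcaf13 were not analysed here.

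**Figure D1:**
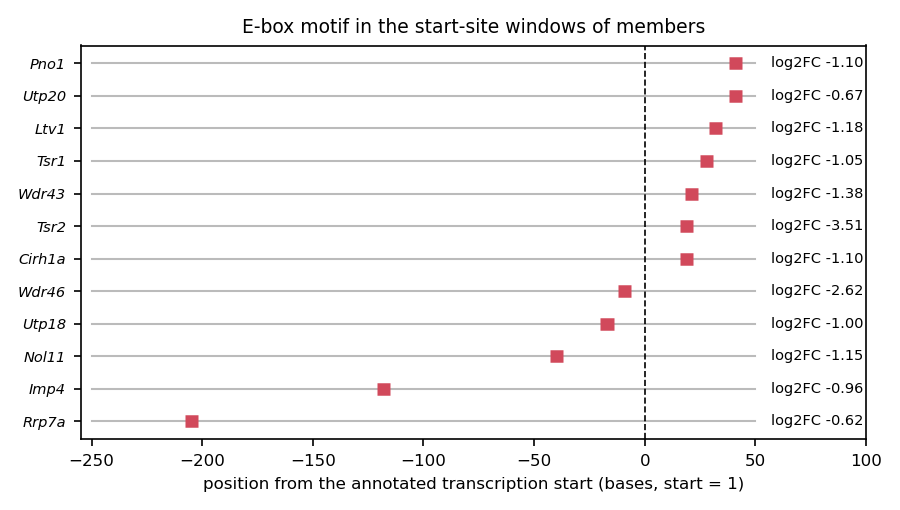
E-box motif CACGTG in the windows of the 12 members that hold it. Each grey line is the window of 1 gene from 250 bases before to 50 bases after the annotated start (dashed line), the x axis is the position from that start in bases (start = 1), each square is 1 motif, and the log2 fold change (log2FC) of the gene, inhibitor over DMSO in edgeR, stands at the right. The motif lies within 50 bases of the start in 10 of the 12 genes.

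The libraries held between 18206584 and 20718690 expected counts, which are RSEM's estimates of fragments per gene, and 41 of the 45 members had at least 100 counts in every library. Libraries were scaled with TMM factors, and CPM, counts relative to the scaled library size, are used to compare libraries, whereas FPKM, which also divides by transcript length, is used to compare genes. DMSO replicate 1 stood apart from the other 3 libraries. Its FPKM summed over 9 two-cell genes, Zfp352 and members of the Zscan4, Tdpoz, Usp17l and Tcstv families, each above 0 in all libraries, was 994, against 3726 in DMSO replicate 2 and 4847 and 5131 in inhibitor replicates 1 and 2. The sum over 12 oocyte genes, again each above 0 in all libraries, was 1002, 2441, 4906 and 4062 in the same order. Oosp1 made up most of each sum, at 555, 1572, 3691 and 2917. Of the 12, only Zp3 was highest in DMSO replicate 1, at 205, 75.1, 59 and 65.1. Summed FPKM of 11 cumulus and granulosa cell genes was 22.7, 14.9, 12.6 and 8.30, with Amh, Foxl2, Inha, Inhba and Ptx3 at 0 in all 4 libraries. Amhr2 made up most of the first sum, at 21.5, 8.57, 5.57 and 4.45, and 7 of the 11 genes were under 1 FPKM in all libraries. Summed FPKM of 8 sperm genes was 2.7, 4.44, 16.5 and 9.43, with Prm1, Tnp2 and Smcp at 0 in all. Prm2 made up most of each sum, at 1.56, 4.44, 15.8 and 5.88. The part of these genes, or of the stage they mark, in the results below was not tested. Medians are therefore given with and without DMSO replicate 1, as are the DESeq2 calls among the members. As the files hold RNA of whole embryos, fewer cells with a transcript and less of it per cell cannot be told apart.

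All 45 members passed the filter on low counts, and all 45 had a lower fitted level in the inhibitor libraries than in the DMSO libraries, although Mphosph10 and Ngdn were higher when the libraries were scaled by their totals (43 lower). The median log2FC of the members was −1.09, with quartiles of −1.33 and −0.92 and a range from −3.62 (Cmss1) to −0.03 (Mphosph10). Over all 13549 tested genes the median was 0.04 and the quartiles were −0.73 and 0.77, and 15.7% of the tested genes lay below the median of the members. Scaling by library totals moved the median of all genes to 0.17 and that of the members to −0.91. Without DMSO replicate 1 the median of the members was −0.53, with 42 lower and 3 higher, namely Nol6, Mphosph10 and Rcl1. Over all genes in that fit the median was 0.06, and 47.0% were lower.

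No member passed |log2FC| > 1 and an adjusted p under 0.05 in edgeR's quasi-likelihood test, where 0% of the tested genes were called in either direction and the smallest adjusted p was 0.333. At an unadjusted p under 0.05, edgeR found 27 members lower, 60% of them, against 10.1% of all tested genes, and 0 members higher, against 4.72%. DESeq2 with transcript lengths as offsets called 7 of the 42 members that it gave an adjusted p lower, or 16.7%, against 5.22% of all genes with an adjusted p. It called 0 members higher, against 1.01% of all genes, and gave 0 members an unadjusted p under 0.05 in that direction. The 7 were Cmss1, Tsr2, Heatr1, Tbl3, Ddx10, Imp3 and Wdr43. With DMSO replicate 1 left out it called 3 of 38 lower, Tsr2, Heatr1 and Ddx10, against 2.48% of all genes. Imp3, Pno1, Wdr43, Ddx52, Nol11 and Ltv1 were not called in that fit only because their log2FC, from −0.99 to −0.72, did not pass the cut on log2FC. Cmss1 and Tbl3 were given no adjusted p in that fit. With 2 libraries a group the smallest p of an exact permutation test of 1 gene is 0.333, so no single gene could be tested that way. The members were picked for a shared function and are not independent of each other, and these shares carry no test of their own.

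**Figure D2:**
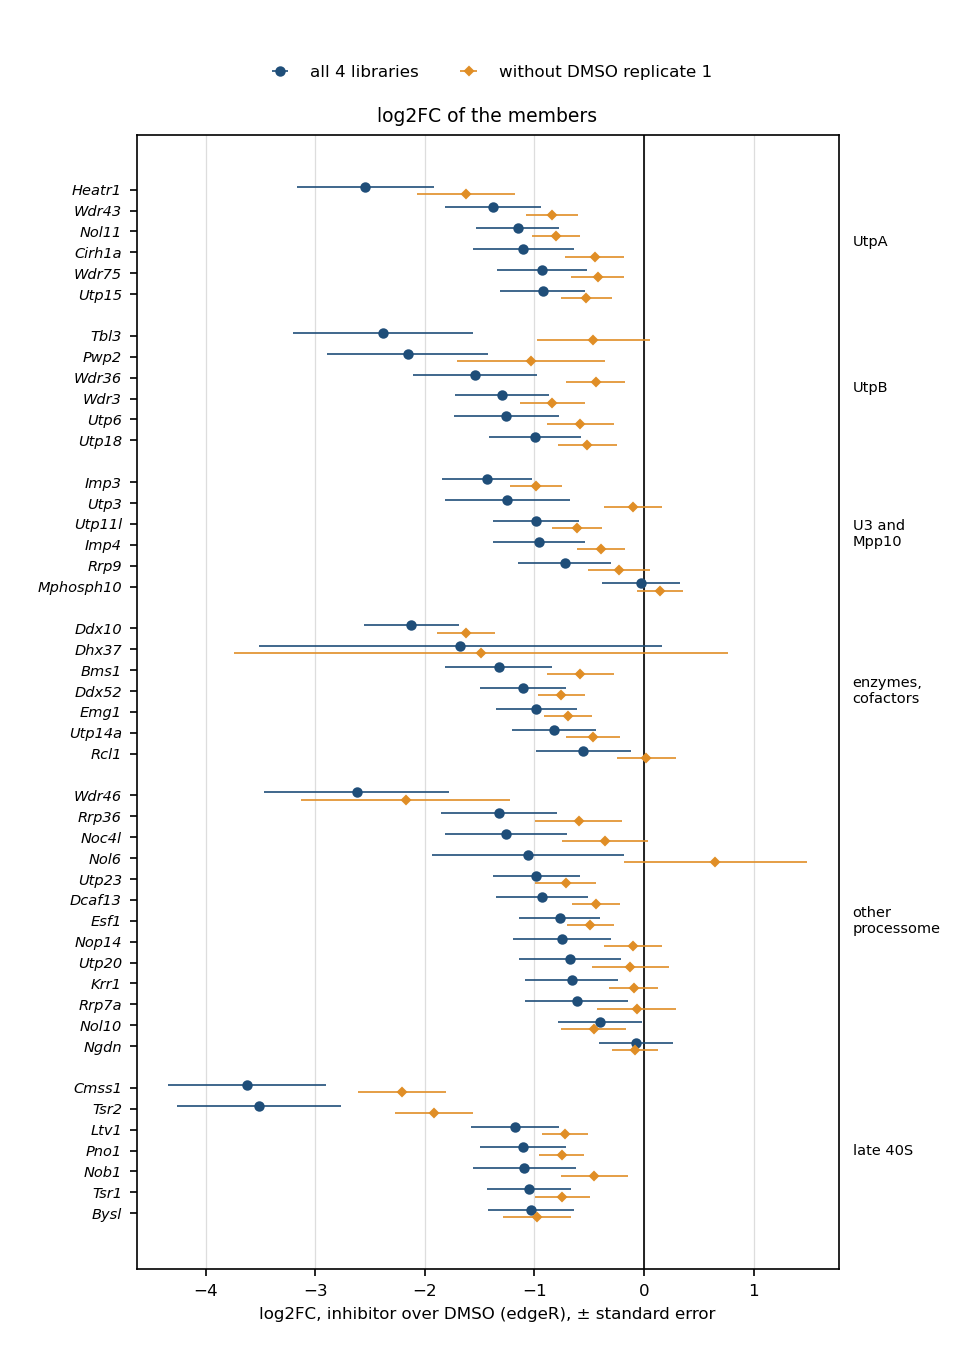
log2FC of each of the 45 members, inhibitor over DMSO, from edgeR, grouped by role. Circles are the fit to all 4 libraries, diamonds the fit without DMSO replicate 1, and bars 1 standard error on either side. All circles lie below 0 on the TMM scale, although Mphosph10 and Ngdn lie above 0 when libraries are scaled by their totals, and the diamonds have a median of −0.53.

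The libraries followed 1 order for most members. DMSO replicate 1 was above DMSO replicate 2 for 43 members, 95.6% of them, against 47.9% of all tested genes. DMSO replicate 2 was above both inhibitor libraries for 39, or 86.7%, against 38.0%. The order of DMSO replicate 1, DMSO replicate 2 and then both inhibitor libraries was held by 37 members, or 82.2%, against 24.0%. The groups did not overlap, with the inhibitor libraries lower, for 39 members, against 28.3% of all tested genes. They did not overlap in the other direction for 0 members, against 28.9%. The 6 members whose groups overlapped were Utp3, Nol6, Krr1, Rrp7a, Rcl1 and Mphosph10. The median gap between DMSO replicates 1 and 2 was 0.85 on the log2 scale, and the median gap between DMSO replicate 2 and the mean of the inhibitor libraries was 0.54, so the spread between the controls was the larger of the pair. Over all tested genes these gaps were −0.05 and −0.01.

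**Figure D3:**
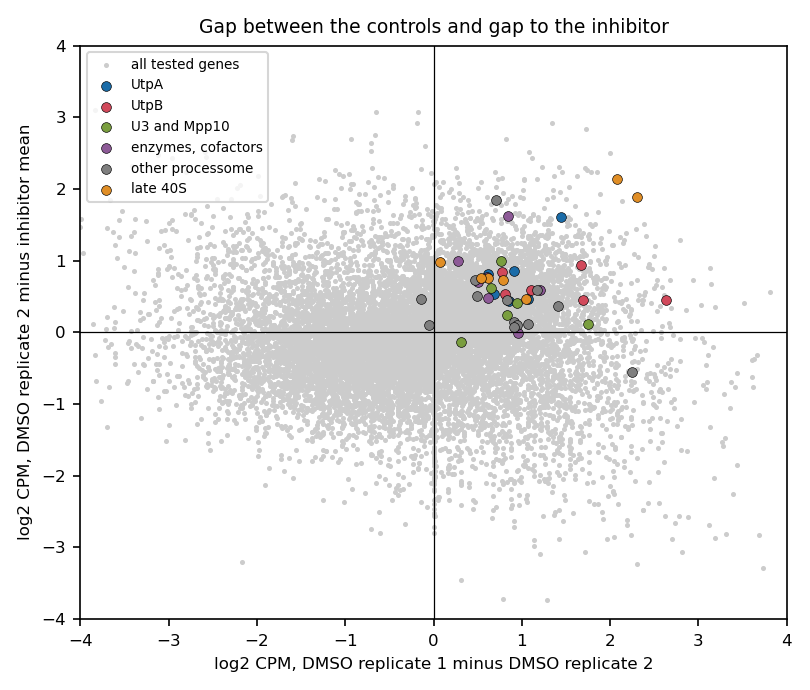
Gap between the controls against gap to the inhibitor for the 45 members (coloured by role) and all 13549 tested genes (grey), with a few grey points outside the axes. The x axis is log2 CPM of DMSO replicate 1 minus DMSO replicate 2, and the y axis is log2 CPM of DMSO replicate 2 minus the mean of the inhibitor libraries, with 0.5 CPM added before the log. Most members lie in the upper right, with 43 to the right of 0 and medians of 0.85 and 0.54.

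Summed over the 45 members, FPKM was 6127 and 4338 in DMSO replicates 1 and 2 and 2721 and 3156 in inhibitor replicates 1 and 2. These sums were 0.741%, 0.581%, 0.377% and 0.425% of all FPKM in the library. By mean FPKM in the DMSO libraries the highest members were Imp3 at 580, Utp11l at 518, Pno1 at 516, Dcaf13 at 425 and Emg1 at 407. At the other end stood Dhx37 at 0.455, and the median member was at 59.0. In the inhibitor libraries the median member was at 34.3, Utp11l at 292 and Pno1 at 268.

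**Figure D4:**
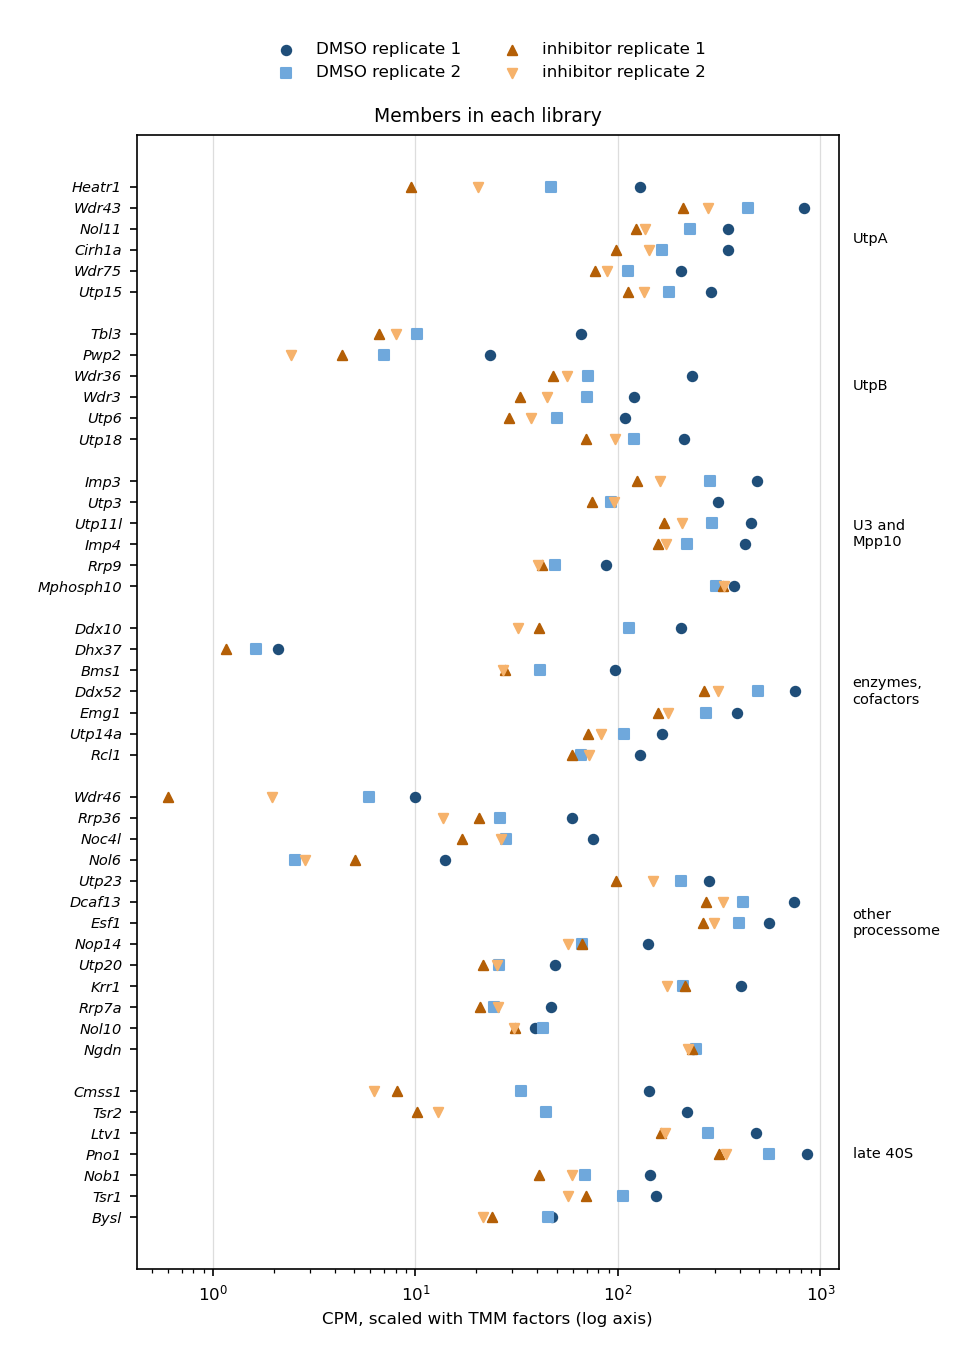
CPM of the 45 members in each of the 4 libraries, on a log axis, grouped by role and ordered by log2FC within each role. Each symbol is 1 library, and Dhx37 in inhibitor replicate 2, at 0, is not drawn. The DMSO libraries (blue) lie to the right of the inhibitor libraries (orange) without overlap for 39 members.

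UtpA is the complex that is known to bind the nascent precursor first, and some of its subunits are also needed for transcription of ribosomal DNA. Its 6 subunits had a median log2FC of −1.13, or −0.66 without DMSO replicate 1. With all 4 libraries 5 were lower at an unadjusted p under 0.05 in edgeR, against 10.1% of all tested genes. None of the 6 overlapped between the groups, and inhibitor replicate 2 was above inhibitor replicate 1 for every one of them. Heatr1 (chr13:12395375-12438893), the largest UtpA subunit and the counterpart of yeast Utp10, stood at 128 and 46.7 CPM in DMSO replicates 1 and 2 and at 9.55 and 20.4 CPM in inhibitor replicates 1 and 2. Both inhibitor libraries were lower than both DMSO libraries, and the mean CPM of the DMSO libraries was 5.83 times that of the inhibitor libraries. Heatr1 fell in DESeq2, with a log2FC of −2.56 ± 0.59 (SE) and an adjusted p of 0.00316, whereas edgeR gave −2.54 ± 0.62 and an adjusted p of 0.333, and the alternatives gave adjusted p from 0.000142 to 0.992. Without DMSO replicate 1 its log2FC was −1.62 in edgeR, and the adjusted p of DESeq2 was 0.0365.

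Wdr43 (chr17:71616178-71659031), the counterpart of Utp5, was the UtpA gene with the highest mean FPKM, 186 in DMSO and 80.5 with the inhibitor. Its CPM was 825 and 440 in the DMSO libraries and 209 and 277 in the inhibitor libraries. The lower control was above both inhibitor libraries, and the log2FC was −1.39 ± 0.46 in DESeq2 with an adjusted p of 0.0449. Without DMSO replicate 1 the adjusted p of DESeq2 was 0.0251, but Wdr43 was no longer called because its log2FC was above −1, with −0.84 in edgeR. Cirh1a, which encodes the beta-propeller protein Utp4, was at 348 and 166 CPM in DMSO and at 97.6 and 142 CPM with the inhibitor, a log2FC of −1.10 ± 0.46 in edgeR. Nol11, Utp15 and Wdr75 lay between −1.15 and −0.92. The E-box printed above lay near the start of Wdr43, Cirh1a and Nol11, 3 UtpA genes with log2FC from −1.38 to −1.15 and −1.10. The windows of Heatr1, Utp15 and Wdr75 did not hold it, and their log2FC were −2.54, −0.92 and −0.93.

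UtpB joins after UtpA and brings in U3, and it is made of the WD-repeat proteins Pwp2, Tbl3, Wdr3, Wdr36 and Utp18 together with Utp6. This group had a median of −1.42, the lowest of the 6 role groups, with 6 of 6 subunits at an unadjusted p under 0.05 in edgeR. That rank was lost without DMSO replicate 1, where its median was −0.55, above those of UtpA, the enzymes and the late factors. Tbl3 (chr17:24700653-24707653), the counterpart of Utp13, was at 65.9 and 10.2 CPM in DMSO and at 6.59 and 8.01 CPM with the inhibitor. DMSO replicate 1 alone was high, and DMSO replicate 2 lay close to the inhibitor libraries. DESeq2 called it, with −2.41 ± 0.73 and an adjusted p of 0.0296, while edgeR's log2FC moved from −2.38 to −0.46 without DMSO replicate 1. Pwp2 (Utp1) was at 23.4 and 6.99 CPM against 4.36 and 2.43, and Wdr36 (Utp21) was at 232 and 71.4 CPM against 48.0 and 56. For these as well DMSO replicate 2 was nearer to the inhibitor libraries than to DMSO replicate 1 in CPM, and log2FC was −1.03 for Pwp2 and −0.44 for Wdr36 without that replicate. Utp18, with 212 and 120 CPM against 69.6 and 96.7, had the highest mean FPKM of the complex, 66.3 in DMSO and 37.4 with the inhibitor.

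Rrp9 is a protein of the U3 particle, and Mphosph10, Imp3 and Imp4 form the Mpp10 complex, which helps U3 pair with the precursor. Together with Utp3 and Utp11l these 6 genes had a median log2FC of −0.97, or −0.31 without DMSO replicate 1. With all libraries 2 of them had an unadjusted p under 0.05 in edgeR. Imp3 (chr9:56937500-56938398) was at 485 and 285 CPM in DMSO and at 124 and 161 CPM with the inhibitor. The DMSO libraries were 2.7 times higher on average, and DMSO replicate 2 alone was 2 times higher. DESeq2 gave Imp3 −1.45 ± 0.45 and an adjusted p of 0.0334. Without DMSO replicate 1 the adjusted p of DESeq2 was 0.0115, with log2FC just above −1 (−0.98 in edgeR). Utp11l was at 455 and 290 CPM against 169 and 206, a log2FC of −0.99 ± 0.39 in edgeR.

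Mphosph10, whose product is the scaffold of the same Mpp10 complex, had values unlike its partners. It stood at 375 and 303 CPM in DMSO and at 331 and 334 CPM with the inhibitor, so that both inhibitor libraries lay between the controls. The log2FC was −0.03 ± 0.35 in edgeR, −0.18 to 0.15 when 1 library was left out, and above 0 with library totals. The difference between Mphosph10 and Imp3 was not tested.

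The enzymes of the particle include the RNA helicases Ddx10, Ddx52 and Dhx37, with Utp14a as activator of Dhx37, the GTPase Bms1 with its partner Rcl1, and Emg1, which methylates a base of the 18S sequence. These 7 had a median log2FC of −1.10, or −0.69 without DMSO replicate 1. With all libraries 4 of them had an unadjusted p under 0.05 in edgeR. Ddx10 (chr9:53098454-53248170), the counterpart of the yeast helicase Dbp4, was at 204 and 113 CPM in DMSO and at 40.7 and 32.2 CPM with the inhibitor. The lower control was 3.11 times the inhibitor mean, and the controls themselves differed less than that. Ddx10 fell in DESeq2 by 2.13 ± 0.47 on the log2 scale, with an adjusted p of 0.00189, and the adjusted p was 0.000367 without DMSO replicate 1, where edgeR's log2FC was −1.62. The alternatives gave Ddx10 adjusted p from 0.000367 to 0.992.

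Ddx52 was at 751 and 493 CPM in DMSO and at 266 and 313 CPM with the inhibitor. Emg1 was at 389 and 273 CPM against 158 and 177. Both kept the controls apart from the inhibitor libraries, with edgeR log2FC of −1.10 ± 0.39 and −0.98 ± 0.37. Bms1 was at 96.4 and 41.5 CPM against 27.8 and 27.1, while its partner Rcl1 was at 128 and 65.7 CPM against 59.6 and 72.0. The groups did not overlap for Bms1, whereas for Rcl1 inhibitor replicate 2 was above DMSO replicate 2, and without DMSO replicate 1 their log2FC were −0.58 and 0.02. Dhx37, the helicase known to remove U3, was near the limit of detection, with rounded counts of 35, 31, 25 and 0, or 2.10, 1.64, 1.16 and 0 CPM. A count of 0 in inhibitor replicate 2 allows up to 0.143 CPM (3 counts, counting error only), and edgeR's log2FC was −1.68 ± 1.84.

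The 13 other processome factors had a median log2FC of −0.77, or −0.36 without DMSO replicate 1. With all libraries 3 of them had an unadjusted p under 0.05 in edgeR. Wdr46, the counterpart of the scaffold protein Utp7, was low, at 9.94 and 5.88 CPM in DMSO and at 0.603 and 1.96 CPM with the inhibitor. Its groups did not overlap, and log2FC in edgeR was −2.62 ± 0.84, or −2.18 without DMSO replicate 1, but DESeq2 left its adjusted p empty. Dcaf13 (Sof1) had the highest mean FPKM of these 13 over the 4 libraries and was at 737 and 413 CPM against 273 and 330. Ngdn, the counterpart of yeast Lcp5, was at 235 and 243 CPM in DMSO and at 233 and 221 CPM with the inhibitor, so all 4 libraries lay close together, with edgeR's log2FC at −0.07 ± 0.34 and above 0 with library totals. Nol10 (Enp2) was at 38.8 and 42.8 CPM against 31.1 and 30.7, and its log2FC of −0.40 ± 0.39 was −0.46 without DMSO replicate 1. Ngdn and Nol10 were the 2 members in which DMSO replicate 1 was below DMSO replicate 2. In Nol6, with 14, 2.54, 5.06 and 2.86 CPM, DMSO replicate 1 alone was high, and log2FC was −1.06 with it and 0.65 without it. The other 8, Rrp36, Noc4l, Utp23, Esf1, Nop14, Utp20, Krr1 and Rrp7a, lay between −1.32 and −0.62.

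The late factors Bysl, Ltv1, Tsr1, Nob1 and Pno1 are known from the precursor of the 40S subunit, and Nob1 is the nuclease that makes the last cut of the 18S end with Pno1 as its partner. Tsr2 is known as the chaperone that delivers the ribosomal protein eS26. With Cmss1, listed here beside them, these 7 had a median log2FC of −1.10, or −0.75 without DMSO replicate 1. With all libraries 7 of 7 had an unadjusted p under 0.05 in edgeR. Cmss1 (chr16:57301999-57606867) was at 143 and 33.4 CPM in DMSO and at 8.07 and 6.25 CPM with the inhibitor, means of 88.1 ± 77.4 and 7.16 ± 1.29 (SD, n = 2). Tsr2 (chrX:151087094-151096543) was at 220 and 44.3 CPM against 10.2 and 13, means of 132 ± 125 and 11.6 ± 1.96. These were the 2 members with the lowest log2FC. In each, DMSO replicate 1 was several times DMSO replicate 2, and DMSO replicate 2 was 4.66 times the inhibitor mean for Cmss1 and 3.82 times for Tsr2.

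Cmss1 and Tsr2 fell in DESeq2, with log2FC of −3.65 ± 0.63 and −3.52 ± 0.64 and adjusted p of 2.9e-05 and 5.16e-05, while edgeR gave adjusted p of 0.333 for both. Over the alternatives adjusted p ranged from 2.07e-08 to 0.411 for Cmss1 and from 9.87e-09 to 0.411 for Tsr2. Without DMSO replicate 1 their log2FC in edgeR was −2.21 and −1.92, and DESeq2 gave Tsr2 an adjusted p of 0.00446 and left that of Cmss1 empty. Cmss1 overlaps the coding gene Filip1l and Tsr2 overlaps Fgd1, as 8 members overlap some coding gene, and the library kit does not mark the strand, so reads from shared stretches cannot be assigned to 1 gene of a pair. Ltv1 was at 479 and 277 CPM against 163 and 171, and Pno1 was at 854 and 558 CPM against 315 and 341. In both, the inhibitor libraries differed by less than the controls did, and log2FC in edgeR was −1.18 ± 0.40 and −1.10 ± 0.39. Bysl was the late factor with the closest controls, 47.2 and 45.1 CPM, against 23.8 and 21.5 CPM with the inhibitor, and its log2FC of −1.03 was −0.98 without DMSO replicate 1. Bysl, like Nol6, was named after its values were seen.

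The role groups were not tested against each other. The 12 members with the E-box had a median log2FC of −1.10, from −3.51 (Tsr2) to −0.62 (Rrp7a), and the 26 without it had −1.06, from −3.62 (Cmss1) to −0.03 (Mphosph10). These medians were −0.73 and −0.51 without DMSO replicate 1. The ranges overlapped almost fully, and no test was made of them.

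The other lists of ribosome assembly genes also had medians below 0, and over all genes DESeq2 called 5.22% lower with all 4 libraries and 2.48% without DMSO replicate 1. The 32 other 40S assembly factors, such as the U3 core proteins and kinases of the late particle, had a median log2FC of −0.90. In edgeR 29 were lower and 3 higher, with 27 lower and 5 higher without DMSO replicate 1. The 3 were Trmt112 at 0.11 and the kinase genes Riok3 at 0.41 and Csnk1d at 0.44. The other kinase genes Riok1, Riok2 and Csnk1e were at −0.04, −0.27 and −0.04. DESeq2 called 8 of the 32 lower and 0 higher with all 4 libraries, and without DMSO replicate 1 the median log2FC in edgeR was −0.57. Nop9 was at 49.0 and 24.9 CPM against 4.64 and 10.4, and Wbscr22, which encodes the methyltransferase of the late 40S particle, was at 44.0 and 12.7 CPM against 5.98 and 7.20. The 54 factors of the large 60S subunit had a median of −1.15, with 52 lower and 2 higher, or 48 and 6 without DMSO replicate 1, and DESeq2 called 11 of 52 lower, against 4 of 40 without that library. Wdr74 was at 266 and 88.7 CPM against 35.1 and 49.8, and the helicase gene Ddx51 at 34.8 and 15.8 CPM against 5.38 and 6.87. For the 32 proteins of the 40S subunit itself the median was −1.42, with 32 lower in both fits, and DESeq2 called 14 of 32 lower, against 2 of 30 without DMSO replicate 1. Rps27 was at 63.3 and 22.1 CPM against 2.50 and 8.92, and Rps19 at 813 and 305 CPM against 124 and 153, although ribosomal protein genes have many near-identical pseudogenes, which makes their counts uncertain. The medians without DMSO replicate 1 were −0.57, −0.64 and −0.67, beside −0.53 for the members. In each list DMSO replicate 1 was mostly above DMSO replicate 2, for 29 of 32, 52 of 54 and 32 of 32 genes. The lists were not tested against the members.

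**Figure D5:**
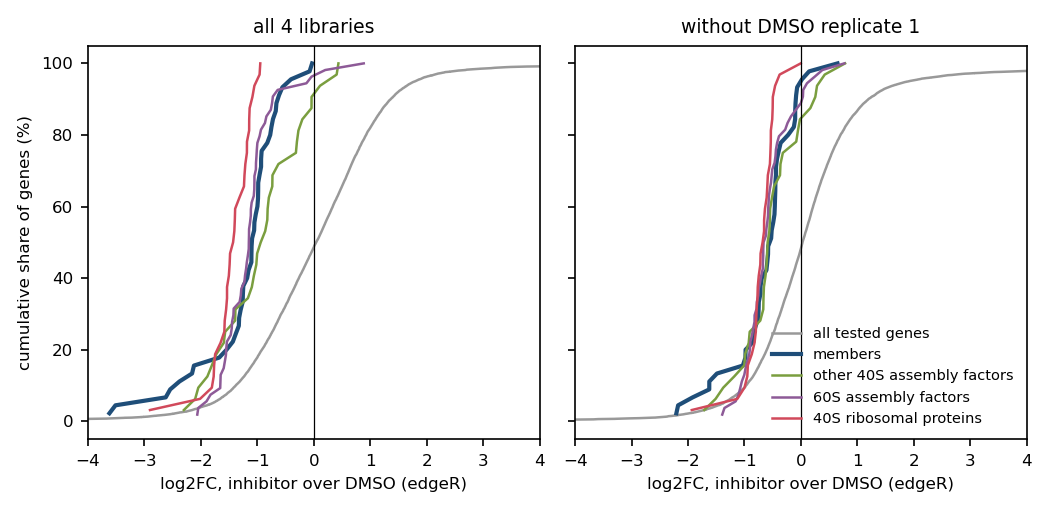
Cumulative share of genes (%) by log2FC, inhibitor over DMSO in edgeR, for the members, for 3 lists of ribosome assembly genes and for all tested genes, with all 4 libraries on the left and without DMSO replicate 1 on the right. On the left the medians run from −1.42 to −0.90 for members and lists against 0.04 for all tested genes, and on the right from −0.67 to −0.53.

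The E-box was less frequent in the windows of these lists than in those of the members. It was present in 12.5% of 24 other 40S assembly factors, 20% of 45 factors of the 60S subunit and 4.17% of 24 proteins of the 40S subunit. Within 50 bases of the start it was found in 8.33%, 15.6% and 0 of 24 genes. No test was made of these shares.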

How the data were processed

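Samples were grouped by the labels. The authors made the libraries with a SMART-Seq kit, aligned read pairs with STAR 2.7.10 (mm10), dropped reads without a unique position and estimated gene levels with RSEM 1.3.3. The deposited expected counts are not normalized. The TPM and FPKM deposited by the authors are scaled to transcript length and to the library, and TPM was used only to check the unit.

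Expected counts were rounded. Genes were kept with edgeR's filterByExpr (minimum count 10, minimum total 15), scaled with TMM and tested with edgeR 4.0.16 (quasi-likelihood, robust) in R 4.3.3, with Benjamini-Hochberg adjustment over 13549 genes. Alternatives used DESeq2 1.42.0, limma 3.58.1 on log2(FPKM + 1) and log2(FPKM + 0.1), other scalings and filters, a replicate block, and libraries left out. DESeq2 with transcript lengths as offsets, fitted without DMSO replicate 1, was added after the values were seen. The methods were also run on simulated counts, in which no control was made to stand apart as DMSO replicate 1 did. Those runs therefore do not cover that feature of the data.

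The members, lists and tests were chosen with earlier results of these data known. Library values were printed for the 12 lowest and 4 highest members by log2FC, every DESeq2 call and the 2 members of each role with the highest mean FPKM, and for the 2 genes of each list with the largest absolute log2FC; further genes were named after their values were seen. Nothing says whether replicates came from separate cultures, so p-values measure only the spread between these libraries. Reads carried no molecular identifiers, so count limits cover counting error only. Multicopy genes lose reads at unique mapping.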

Additional observations from a re-analysis of the deposited data

How the results depend on the processing

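In edgeR 0 members were called, against 7 called lower by DESeq2 with transcript lengths, on all genes with a count or on the same genes, and 7 by edgeR with no filter on low counts. Over all genes these fits called 426 of 8154, 437 of 7971, 471 of 8033 and 479 of 18208 lower. The 7 in edgeR with no filter were not the same genes as the 7 in DESeq2 with transcript lengths. They held 1 UtpA and 2 UtpB genes, against 2 UtpA genes and 1 UtpB gene in DESeq2. DESeq2 without DMSO replicate 1 called 3 members (129 of 5211 genes) and the replicate block 2 (32 of 13549 genes). When 1 library was left out, edgeR called between 0 and 39, the highest without DMSO replicate 2, where DMSO replicate 1 is the only control and is assumed to vary like the other libraries. Over all genes that fit called 2065 lower and 2148 higher. Members at an unadjusted p under 0.05 and lower, 27 in edgeR, numbered 17 in DESeq2 without DMSO replicate 1, 15 and 14 in limma with 0.1 and 1 added to FPKM, 13 with the replicate block, and between 6 and 41 when 1 library was left out. The median log2FC was −0.53 in both fits without DMSO replicate 1 and ranged from −1.38 to −0.53 when 1 library was left out. Members with no overlap and higher numbered 0 with TMM factors, against 28.9% of all tested genes, 1 with library totals and 1 in FPKM. When 1 library was left out they numbered between 0 and 2, but a group of 1 library overlaps less readily. The shares over all genes under these other settings are not given here. Of 357 values under the alternatives for the members named by rule, 345 stayed below 0. The 12 others were values of Rcl1 (0.013 in DESeq2 without DMSO replicate 1, and from −0.9601 to 0.0193 in edgeR when 1 library was left out, the highest without DMSO replicate 1), Ngdn (0.0613 with library totals, 0.0626 and 0.0624 in limma with 0.1 and 1 added to FPKM) and Mphosph10 (0.0006 with at least 10 counts in every library, 0.1415 in DESeq2 without DMSO replicate 1, 0.1216 with library totals, 0.1186 and 0.118 in the same limma fits, and from −0.1769 to 0.1467 when 1 library was left out, above 0 without DMSO replicate 1 or inhibitor replicate 1). Nol6, named after its values were seen and not in that tally, was at 0.65 without DMSO replicate 1 in edgeR. The cause was not tested. The deviations of the libraries numbered 1 from their group means had a correlation of −0.03 across genes. This value showed no pairing by replicate number, but it cannot exclude pairing, as DMSO replicate 1 stood apart from the other libraries. With 2 libraries a group, and a median gap between the controls larger than that from DMSO replicate 2 to the inhibitor libraries, the size of the differences is uncertain.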

Other observations

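Other letter patterns near the starts of the members gave different shares. The variant CACGCG, on either strand, was in 23.7% of the 38 members with a window, 18.9% of tested genes and 10.5% of all genes in the table. CATGTG, on either strand, was in 21.1% of the members, 10.8% of tested genes and 15.9% of all genes, and in 0 of 24 other 40S assembly factors. The median number of CG pairs in a window was 21 for the members, 19 for tested genes and 7 for all windows. No test was made of these values.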
